A study of Mus musculus with 18 samples.

Results

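The comparison described here set caput epididymis of C57BL/6J mice given ethanol (EtOH) against caput of control mice. All are labelled 10 weeks, recorded as the weeks of treatment. Its members were chosen by their labels. The 6 libraries labelled 6% EtOH or 10% EtOH, 3 of each dose, were pooled and compared with the 3 libraries labelled Control, which makes 9 of the 18 libraries of the series. The other 9, collected after cessation, were left out. All 9 libraries came from C57BL/6J caput tissue and total RNA. The labels used here do not state the route of the ethanol, what the controls received or how old the mice were. The question was which genes move with ethanol at either dose. The title of the series names sperm noncoding RNAs and epididymal mitochondria, so genes of mitochondria and small RNA handling were among those examined.

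The caput is the first of the main regions of the epididymis, the coiled duct in which sperm from the testis mature. Its principal cells secrete proteins into the lumen, among them lipocalins, beta-defensins, proteases and antioxidant enzymes, and shed vesicles that pass proteins and small RNAs to sperm. This secretion depends on androgen and, in the proximal end, on factors arriving from the testis, and it draws on the ribosomes, the endoplasmic reticulum (ER) translocon and the mitochondria of the principal cell.

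The 9 libraries held 15.6M to 21.1M reads assigned to genes, and 17154 of 53819 gene entries had enough reads to be tested. Levels are given as CPM (counts scaled to library size) after TMM scaling. The threshold was an adjusted p (Benjamini-Hochberg) of 0.05 in edgeR's quasi-likelihood test (two-sided). Fold changes are log2 values of EtOH over control with their standard errors. Each library has its own identifier, but nothing states that they came from separate animals, so the p-values measure only the spread between these samples, which may be technical. The label of caput matched its markers: 10 markers of principal cells summed to 82400 to 113900 CPM in the EtOH libraries and 70030 to 76660 CPM in the controls. One library stood apart. The third 10% EtOH library, whose identifier is of another kind than those of the other 2, lay at 70.8 on the first principal component (29.7% of the variance), against -17.3 to 8.09 for the other EtOH libraries and -27.6 to -23.4 for the controls. Mitochondrially encoded genes took 2.85% of its reads, against 1% to 1.65% in the other EtOH libraries and 0.892% to 1.35% in the controls.

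In the pooled comparison 16 genes rose with ethanol, and none fell. They were 0.0933% of the genes tested. Their fold changes ran from 1.42 to 3.14 (log2 0.50 to 1.65), and in each of them all 6 EtOH libraries lay above all 3 controls. The same held for 1177 of all genes tested (6.86%). Because the test used the same values, the lack of overlap, here and below, is a description and adds no support. The 16 comprised a pair of spliceosomal small nuclear RNAs (U1 and Gm22973), a subunit each of ATP synthase and complex I (Atp5md, Ndufb1), a pair of ribosomal proteins (Rps14, Rps27), genes of the ER (Sec61b, Selenof), the lipid peroxidase Gpx4, the secreted Pate6, and the genes Hint1, Cops9, Tmem256, S100a1, 2410006H16Rik and Gm14744. The naming rule covered 13 of them, and Gm22973, 2410006H16Rik and Gm14744 fell outside it and were added after their values were seen. On the lower side the smallest adjusted p was 0.0517.

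**Figure D1:**
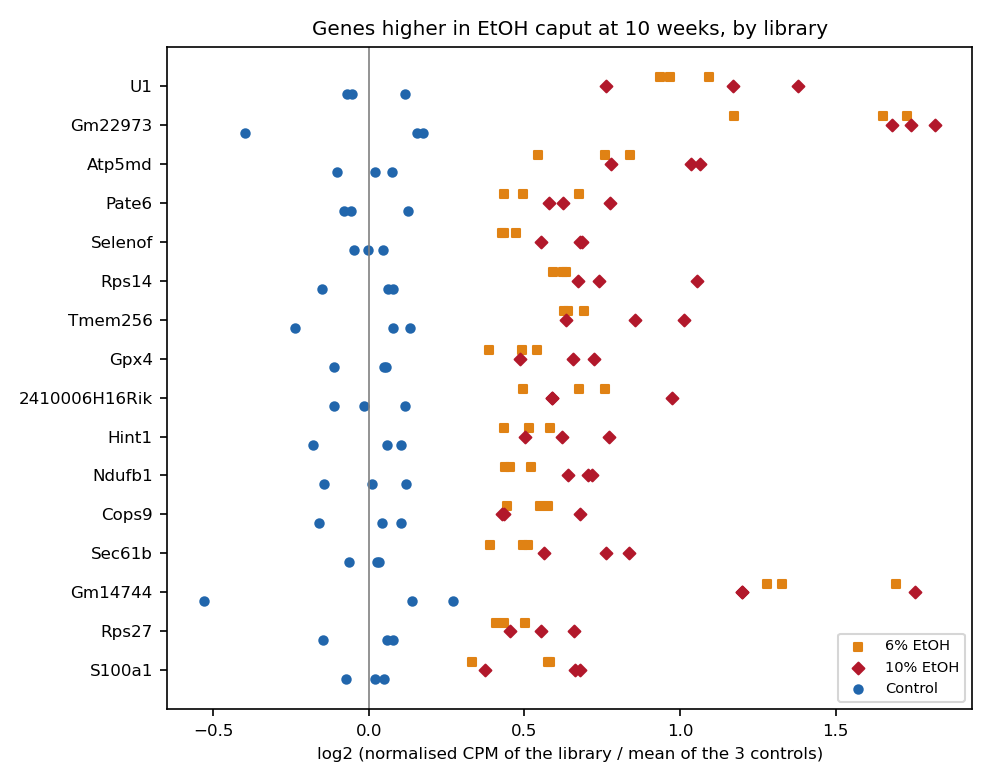
Levels of the 16 genes that passed in the pooled comparison, as log2 of each library's normalised CPM over the mean of the 3 controls (x axis), with 1 point for each library. In every gene the 3 squares (6% EtOH) and 3 diamonds (10% EtOH) lie to the right of the 3 circles (controls).

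The entry with the smallest p was U1, the small nuclear RNA that pairs with the start of introns during splicing. The entry was not matched to a gene model here, nor were those of U2, U4 and U6, so which of the many U1 copies it counts is not known. U1 had 425, 464 and 416 CPM in the 6% EtOH libraries and 368, 565 and 489 CPM in the 10% EtOH libraries, against 207, 235 and 209 CPM in the controls. The EtOH libraries did not overlap the controls, and the lowest EtOH value was a 10% EtOH library. The log2 fold change was 1.07 ± 0.12 (adjusted p = 0.0105, edgeR's quasi-likelihood test), and the means were 454 ± 68.2 CPM in EtOH caput and 217 ± 15.7 CPM in control caput (SD, n = 6 and 3).

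Gm22973 is annotated as a small nuclear RNA and had the highest log2 fold change of the 16, 1.65 ± 0.20 (adjusted p = 0.0139). It is of interest because its sequence is close to that of U2, the small nuclear RNA that pairs with the branch point of introns. In the GENCODE M21 transcripts (GRCm38), Gm22973 (chr12:59040335-59040525, plus strand) and the U2 gene Rnu2-10 (chr11:101658238-101658428, plus strand) are both 191 bases long, and 182 positions are equal. The sequences are shown so that the similarity can be seen. Capitals mark the positions at which they differ.
Gm22973: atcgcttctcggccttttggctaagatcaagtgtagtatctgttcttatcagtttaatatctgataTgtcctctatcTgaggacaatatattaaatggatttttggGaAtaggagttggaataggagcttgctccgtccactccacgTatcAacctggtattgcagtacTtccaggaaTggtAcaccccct
Rnu2-10: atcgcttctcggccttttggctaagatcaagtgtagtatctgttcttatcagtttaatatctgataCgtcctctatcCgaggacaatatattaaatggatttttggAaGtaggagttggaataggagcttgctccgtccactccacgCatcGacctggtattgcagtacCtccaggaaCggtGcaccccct
Reads from such near-identical copies can be divided between entries by the counting, so the value of each small nuclear RNA entry is uncertain. Gm22973 had 8.17, 8.62 and 5.86 CPM in the 6% EtOH libraries and 8.7, 8.33 and 9.18 CPM in the 10% EtOH libraries, against 1.97, 2.93 and 2.89 CPM in the controls. No EtOH library overlapped a control, and the lowest EtOH value was a 6% EtOH library.

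U2, Rnu12, U4 and U6 did not pass. U2 had 274, 302 and 228 CPM in the 6% EtOH libraries and 292, 330.1 and 549 CPM in the 10% EtOH libraries, against 124, 166 and 108 CPM in the controls, a log2 difference of 1.31 ± 0.28 (adjusted p = 0.104). The EtOH and control libraries did not overlap, and the third 10% EtOH library was far above the rest. Rnu12, the U12 RNA of the minor spliceosome, which removes a rare class of introns, had 59.8, 46.2 and 32 CPM in the 6% EtOH libraries and 45.6, 54.1 and 67.1 CPM in the 10% EtOH libraries, against 19.7, 22 and 12.9 CPM in the controls. Here too the groups did not overlap, with a log2 difference of 1.48 ± 0.23 (adjusted p = 0.0564). U4, which is base-paired with U6 until the spliceosome is activated, had 46.3 to 149 CPM in the EtOH libraries and 19 to 35.9 CPM in the controls. U6, the RNA at the catalytic centre, had 9.33 to 20.8 CPM in the EtOH libraries and 7.05 to 8.13 CPM in the controls. For U4 and U6 the log2 differences were 1.45 ± 0.39 and 0.63 ± 0.25, with adjusted p of 0.14 and 0.21.

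**Figure D2:**
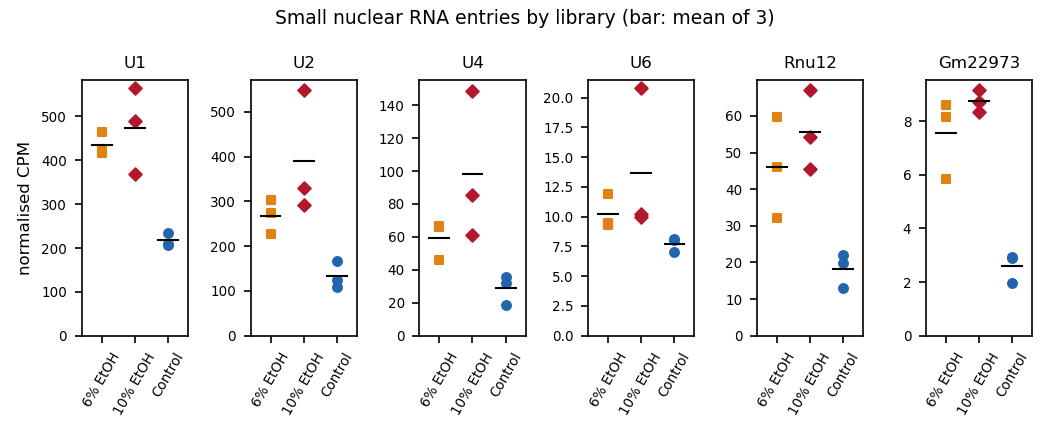
Normalised CPM (y axis, linear from 0) of 6 small nuclear RNA entries in the 3 libraries of each group, with the bar at the mean of 3. U1 and Gm22973 passed the test; in U2 and U6 the third 10% EtOH library, at 549 and 20.8 CPM, is far above the other EtOH libraries.

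Other short noncoding RNAs mostly had values above 0 without passing. Among 56 tested small nucleolar RNAs, which guide the chemical modification of ribosomal RNA, 49 had a log2 difference above 0, with a median of 0.81, against 51% above 0 and a median of 0.0062 over all genes tested. In 27 of them the unadjusted p was under 0.05 on the higher side and in 2 on the lower side, where 10.3% and 8.1% of all genes were. Of 10 small Cajal body RNAs, which guide the modification of small nuclear RNAs, 9 lay above 0, with a median of 0.50. Snord118, which takes part in processing large-subunit ribosomal RNA, had 2.38 to 5.11 CPM in the EtOH libraries and 1.08 to 1.67 CPM in the controls. Snord17 had 92 to 195 CPM in the EtOH libraries and 48.6 to 68.9 CPM in the controls. Both sets of values were free of overlap, and both genes had an adjusted p of 0.104; they were named after their values were seen. Rpph1, the RNA of the enzyme that trims transfer RNA precursors, had 73.9, 89.99 and 88.7 CPM with 6% EtOH, 86.6, 116 and 123 CPM with 10% EtOH and 61.6, 56.6 and 24.2 CPM in controls. That gave a log2 difference of 1.02 ± 0.29 (adjusted p = 0.143). The labels do not say whether RNAs without a poly(A) tail were kept or removed in the libraries. Without the third 10% EtOH library the median of the small nucleolar RNAs was 0.60, and 8 of 55 passed as higher, where 3.22% of all genes did. These RNAs are short, and the values fell once trends with transcript length and GC content were removed. The small nucleolar RNAs then had 43 of 56 above 0 and a median of 0.34. The small Cajal body RNAs had 6 of 10 above 0 and a median of 0.22.

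The mitochondrial members of the 16 were Atp5md and Ndufb1. Atp5md, a small membrane subunit of ATP synthase, had 83.6, 88.4 and 71.9 CPM in the 6% EtOH libraries and 84.8, 101 and 103 CPM in the 10% EtOH libraries, against 52, 50.1 and 46 CPM in the controls. Every EtOH library exceeded every control, and the 2 highest were 10% EtOH libraries. Its log2 fold change was 0.85 ± 0.11 (adjusted p = 0.0176), with means of 88.9 ± 11.8 CPM in EtOH caput and 49.4 ± 3.04 CPM in control caput (SD, n = 6 and 3). Ndufb1, an accessory subunit of complex I, had 57.2, 59.9 and 56.4 CPM in the 6% EtOH libraries and 65, 68.6 and 68 CPM in the 10% EtOH libraries, against 45.3, 42 and 37.8 CPM in the controls. The groups did not overlap and the 10% EtOH libraries were the 3 highest (log2 fold change 0.58 ± 0.09, adjusted p = 0.0401). The GENCODE M21 annotation used here for transcript length labels the matched Ndufb1 entry a bidirectional promoter long noncoding RNA, not protein-coding.

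Nuclear genes of the respiratory chain were mostly higher as groups, by small amounts. Gene lists, here and below, were chosen with earlier results of these data known. Their counts beside the share of all genes are therefore descriptions and not tests. Complex I, the NADH dehydrogenase that feeds electrons into the chain, had 34 of 38 members above 0 and a median log2 difference of 0.17. In 14 of the 38 all EtOH libraries exceeded all controls, where 6.86% of all genes did, and 1 passed, where 0.0933% of all genes did. Ndufb8 had 58.6, 64.8 and 67.6 CPM with 6% EtOH, 64.2, 78.4 and 68.5 CPM with 10% EtOH and 46.6, 50.5 and 38.7 CPM in controls (log2 difference 0.57 ± 0.10, adjusted p = 0.0608), and the groups did not overlap. Ndufv2, in the NADH-oxidising arm of the complex, had 144 to 184 CPM in the EtOH libraries and 120.1 to 124 CPM in the controls, again free of overlap (log2 difference 0.40 ± 0.08, adjusted p = 0.07).

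Complexes II and III had 13 of 16 members above 0 (median 0.16), with none passing. Uqcrq, a small subunit of complex III, was the gene nearest to the threshold on the higher side: it had 86.2, 95.1 and 99.3 CPM with 6% EtOH, 88.3, 105 and 93.7 CPM with 10% EtOH and 71.2, 69.1 and 66.6 CPM in controls (log2 difference 0.46 ± 0.08, adjusted p = 0.0504). Cycs, which encodes cytochrome c, the carrier between complexes III and IV, had 71.6 to 98.8 CPM in the EtOH libraries and 58.2 to 63.2 CPM in the controls. ATP synthase had 15 of 18 members above 0 (median 0.12). After Atp5md its smallest p was that of Atp5l, another small membrane subunit, with 39 to 56.6 CPM in the EtOH libraries and 27.6 to 32.3 CPM in the controls (log2 difference 0.65 ± 0.12, adjusted p = 0.0604). Complex IV, which passes electrons to oxygen, had 18 of 22 above 0 but a median of only 0.045, and Cox6c had the smallest p in it, with 242, 242 and 214 CPM with 6% EtOH, 256, 276 and 358 CPM with 10% EtOH and 163, 157 and 181 CPM in controls. The mean level of complex I, of complexes II and III and of ATP synthase was higher in each EtOH library than in each control, while complex IV overlapped. Of all 51 lists, 9 had such a higher mean level, 2 had a lower one and 40 overlapped. The list of androgen response genes was also among the higher ones (0.0413 to 0.178 with EtOH, -0.0496 to 0.0289 in controls).

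Of the 13 protein-coding genes of the mitochondrial genome itself, all 12 tested were above 0, with a median log2 difference of 0.72, but 1 had all EtOH libraries above the controls, where 6.86% of all genes did, and none passed. The median was 0.26 for 6% EtOH and 1.06 for 10% EtOH, each against the same controls. mt-Cytb, the mitochondrially encoded part of complex III, had 2528, 2958 and 1973 CPM with 6% EtOH, 3424, 3128 and 6294 CPM with 10% EtOH and 1728, 1672 and 2553 CPM in controls. The third 10% EtOH library was the highest, and the 6% EtOH libraries overlapped the controls (log2 difference 0.77 ± 0.34, adjusted p = 0.274). Without the third 10% EtOH library the median was 0.42. Mitochondrial transcripts have nuclear copies, so their counts carry that uncertainty.

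Mitochondrial ribosomal proteins, which build the ribosome that translates the mitochondrial genome, had 62 of 77 tested members above 0 (median 0.14). In 19 all EtOH libraries exceeded all controls, where 6.86% of all genes did, and none passed. Mrpl41 came nearest, with 61.3, 60.6 and 69.7 CPM with 6% EtOH, 62, 70.2 and 67.3 CPM with 10% EtOH and 40.5, 49.8 and 48.4 CPM in controls (log2 difference 0.50 ± 0.09, adjusted p = 0.0604). Enzymes of the TCA cycle had 9 of 21 above 0 and a median of -0.033. Genes of mitochondrial fission, fusion and biogenesis had 14 of 26 above 0 and a median of 0.021. Pink1, the kinase that marks damaged mitochondria for removal, had 191 to 220.4 CPM in the EtOH libraries and 148 to 173 CPM in the controls, without overlap (log2 difference 0.35 ± 0.08, adjusted p = 0.0986). Immp1l, a subunit of the inner membrane peptidase, was named after its values were seen. It had 31.2, 35.5 and 28.8 CPM with 6% EtOH, 35.8, 35 and 53 CPM with 10% EtOH and 18.9, 19 and 20.3 CPM in controls (log2 difference 0.91 ± 0.17, adjusted p = 0.0608), with the third 10% EtOH library well above the others.

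Of the cytosolic ribosome, Rps14 and Rps27 passed, both proteins of the small subunit. Rps14 had 878, 884 and 858 CPM in the 6% EtOH libraries and 906, 1182 and 950.3 CPM in the 10% EtOH libraries, against 595, 600.5 and 513 CPM in the controls. The controls were all below the EtOH libraries, and the second 10% EtOH library was the highest (log2 fold change 0.73 ± 0.11, adjusted p = 0.0349). Rps27 had 694, 729 and 683 CPM in the 6% EtOH libraries and 703, 812 and 754 CPM in the 10% EtOH libraries, against 543, 535 and 464 CPM in the controls, with no overlap (log2 fold change 0.50 ± 0.08, adjusted p = 0.047). Ribosomal protein genes have many near-identical pseudogenes, so these counts are uncertain to the extent that reads were shared. Of 80 cytosolic ribosomal proteins 60 lay above 0, with a median of 0.097, and 2 passed, where 0.0933% of all genes did. In 22 of the 80 all EtOH libraries exceeded all controls (6.86% of all genes did). The mean level of the 80 did overlap between groups. On a log2 scale relative to the control mean, it ran from -0.079 to 0.24 in the EtOH libraries and from -0.095 to 0.063 in the controls.

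Sec61b and Selenof belong to the ER. Sec61b, a subunit of the channel through which secreted proteins enter the ER, had 108, 117 and 116 CPM in the 6% EtOH libraries and 121, 139 and 147 CPM in the 10% EtOH libraries, against 83.6, 84 and 78.6 CPM in the controls. The EtOH libraries were all above the controls, with the 10% EtOH libraries highest (log2 fold change 0.60 ± 0.10, adjusted p = 0.0443). Selenof, an ER selenoprotein that binds the glycoprotein folding sensor, had 221, 227 and 220.2 CPM in the 6% EtOH libraries and 239.9, 263 and 262 CPM in the 10% EtOH libraries, against 158, 163 and 169 CPM in the controls. It showed the same order of groups (log2 fold change 0.55 ± 0.08, adjusted p = 0.0349). Among 30 genes of the translocon, the signal recognition particle and signal peptidase, 28 lay above 0 (median 0.14), 8 lay wholly above the controls, where 6.86% of all genes did, and 1 passed, where 0.0933% of all genes did. Ssr4 and Sec61g came nearest after Sec61b, with log2 differences of 0.48 ± 0.08 and 0.67 ± 0.12 and an adjusted p of 0.0571 each. Ssr4, of the translocon-associated protein complex, had 259 to 318 CPM in the EtOH libraries and 181 to 212.7 CPM in the controls. Sec61g, another subunit of the channel, had 150.3 to 192 CPM in the EtOH libraries and 83.4 to 123 CPM in the controls. Chaperones and sensors of the unfolded protein response had 16 of 25 above 0 (median 0.081), and none passed.

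Gpx4, the selenoenzyme that reduces lipid hydroperoxides in membranes and is also a structural protein of sperm, had 165, 183 and 178 CPM in the 6% EtOH libraries and 177, 199 and 208 CPM in the 10% EtOH libraries, against 131, 131 and 117 CPM in the controls. No EtOH library overlapped a control (log2 fold change 0.55 ± 0.08, adjusted p = 0.0376). It was the 1 gene of 33 in the antioxidant list to pass, where 0.0933% of all genes did. Of the 33, 21 lay above 0 (median 0.050). In 3 of them all EtOH libraries exceeded all controls and in 3 all lay below, where 6.86% and 5.5% of all genes did. Prdx1, a peroxiredoxin that removes peroxides, had 538 to 879.6 CPM in the EtOH libraries and 458 to 502 CPM in the controls and an adjusted p of 0.121. Of enzymes of ethanol and aldehyde metabolism 13 of 20 lay above 0, the median was 0.093, and none passed. Aldh3a2, a dehydrogenase of long-chain aldehydes, came second in that list with 186, 219.9 and 216 CPM with 6% EtOH, 212.1, 222 and 243 CPM with 10% EtOH and 181, 201 and 158 CPM in controls. Those values overlapped (log2 difference 0.27 ± 0.09, adjusted p = 0.172).

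The other genes that passed have varied roles. Pate6, of a family of small secreted proteins of the male tract, had 383, 433 and 367 CPM in the 6% EtOH libraries and 418, 464 and 405 CPM in the 10% EtOH libraries, against 256, 261 and 296 CPM in the controls. There was no overlap (log2 fold change 0.60 ± 0.09, adjusted p = 0.0349). Hint1, a nucleotide hydrolase, had 155 to 195 CPM in the EtOH libraries and 101 to 123 CPM in the controls. Cops9, the smallest subunit of the COP9 signalosome, which regulates ubiquitin ligases, had 145 to 173 CPM in the EtOH libraries and 96.6 to 116 CPM in the controls. Neither overlapped, and the log2 fold changes were 0.58 ± 0.09 and 0.52 ± 0.08 (adjusted p = 0.0376 and 0.0401). S100a1, a calcium-binding protein, had 79.1 to 101 CPM in the EtOH libraries and 59.8 to 65 CPM in the controls. Tmem256, a small membrane protein, had 56 to 73.1 CPM in the EtOH libraries and 30.8 to 39.8 CPM in the controls. Their log2 fold changes were 0.54 ± 0.09 and 0.75 ± 0.11 (adjusted p = 0.0481 and 0.0349). The transcript 2410006H16Rik had 53.5 to 74.6 CPM in the EtOH libraries and 35.1 to 41.2 CPM in the controls, and Gm14744 had 4.97 to 7.32 CPM in the EtOH libraries and 1.5 to 2.61 CPM in the controls. In both the EtOH libraries were all above the controls (log2 fold change 0.69 ± 0.11 and 1.42 ± 0.23, adjusted p = 0.0376 and 0.0468). Subunits of the proteasome, which degrades proteins tagged with ubiquitin, had 28 of 32 above 0 and a median of 0.16. In 11 of them all EtOH libraries exceeded all controls, against 6.86% of all genes, and none passed. Psma7, of the outer ring of the core particle, had 243 to 279 CPM in the EtOH libraries and 182 to 218 CPM in the controls (log2 difference 0.35 ± 0.08, adjusted p = 0.0986).

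**Figure D3:**
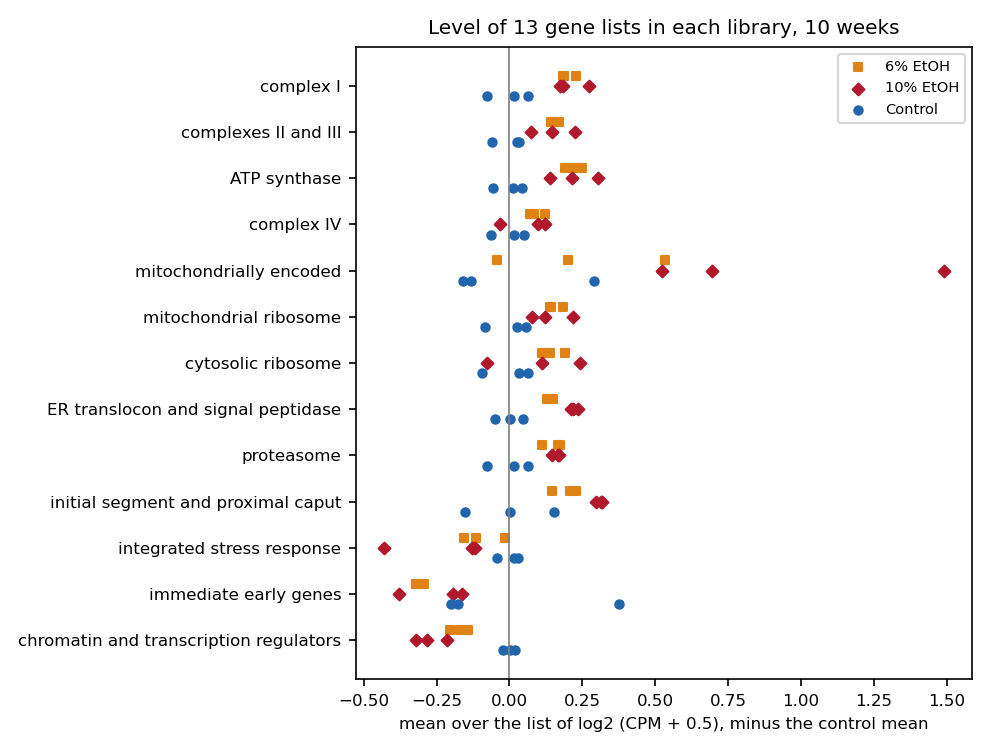
Mean level of 13 gene lists in each library (x axis: mean over the tested members of log2 CPM with a pseudocount of 0.5, relative to the mean of the 3 controls). Complex I, complexes II and III, ATP synthase, the mitochondrial ribosome, the ER translocon and the proteasome lie higher in all 6 EtOH libraries, and chromatin regulators lie lower; the other 6 lists overlap.

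Genes of the secretory programme of the proximal caput did not pass the threshold. Their mean log2 levels overlapped between groups. In the list of the proximal caput and initial segment the lowest EtOH library was at 0.146 and the highest control at 0.152. Summed levels of that list did not overlap, at 55210 to 89680 CPM with EtOH and 45170 to 54410 CPM in controls. Nor did the sums of caput secretory proteins, at 88240 to 95190 CPM with EtOH and 81400 to 85700 CPM in controls. Much of that sum is the single gene Gpx5. Only 16 of the 28 tested members lay above 0 (median 0.15), against 51% of all genes. The mean log2 level of the list ran from -0.331 to 0.249 with EtOH and from -0.0343 to 0.0279 in controls. Beta-defensin sums were 20750 to 31660 CPM with EtOH and 17470 to 19460 CPM in controls, also apart. Of 23 tested genes of the proximal caput and initial segment, 20 lay above 0 (median 0.46). In 6 all EtOH libraries exceeded all controls, where 6.86% of all genes did. Lcn10, a lipocalin of the proximal epididymis, had 1319, 1695 and 1964 CPM with 6% EtOH, 1591, 1808 and 2508 CPM with 10% EtOH and 1091, 1203 and 913 CPM in controls (log2 difference 0.76 ± 0.17, adjusted p = 0.104). Adam7, a membrane protein that caput cells pass to sperm, had 18003, 21244 and 20332 CPM with 6% EtOH, 20498, 22023 and 28162 CPM with 10% EtOH and 14894, 15379 and 15156 CPM in controls. The lowest EtOH library was above the highest control in both. Gpx5, the abundant secreted glutathione peroxidase of the caput, had 40224, 48138 and 46588 CPM with 6% EtOH, 44610, 47730 and 49964 CPM with 10% EtOH and 34622, 37716 and 36856 CPM in controls (log2 difference 0.34 ± 0.10, adjusted p = 0.136).

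Crisp1, a secreted protein that coats sperm, had 603 to 1491 CPM in the EtOH libraries and 306 to 497 CPM in the controls, and the third 10% EtOH library held the highest value. Defb20 and Defb18, beta-defensins of the caput, had 4953 to 8773 CPM in the EtOH libraries and 4108 to 4559.9 CPM in the controls, and 446 to 798 CPM in the EtOH libraries and 339.7 to 439 CPM in the controls. Of 28 tested beta-defensins 17 lay above 0, against 51% of all genes, with a median of 0.11. That median was -0.12 once trends with transcript length and GC content were removed. In bulk tissue, more cells of a type and more RNA per cell cannot be told apart. Markers of principal cells themselves lay higher, 9 of 10 above 0 with a median of 0.53, and none passed. Their mean log2 level was higher in every EtOH library (0.234 to 0.727) than in any control (-0.184 to 0.184).

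Markers of some other cell types are given here as measured, and their part in the results was not tested. All 10 macrophage markers lay above 0 (median 0.32), with summed levels of 254.8 to 406.5 CPM in the EtOH libraries and 204.8 to 234.7 CPM in the controls. Lyz2, the lysozyme of myeloid cells, had 39.5 to 70.7 CPM in the EtOH libraries and 29 to 35.5 CPM in the controls. Fibroblast markers had 9 of 10 above 0 (sums of 659.7 to 981.2 CPM with EtOH and 602.3 to 742.6 CPM in controls), and smooth muscle 7 of 8 (1406 to 2092 CPM with EtOH and 1328 to 1644 CPM in controls). Of 13 markers of the ciliated cells of the efferent ducts 1 lay above 0, with sums of 48.5 to 98.4 CPM in EtOH libraries and 69.9 to 138.9 CPM in controls. Foxj1, the regulator of motile cilia, had 4.08, 3.97 and 7.27 CPM with 6% EtOH, 2.13, 4.26 and 6.85 CPM with 10% EtOH and 11, 5.86 and 19.1 CPM in controls, and the groups overlapped. Adipocyte markers had a median of 1.66 for 6% EtOH and -0.081 for 10% EtOH. They were low throughout, with sums of 94.7 to 139.6 CPM with EtOH and 108 to 118.6 CPM in controls. Markers of T and natural killer cells had 2 of 7 tested members above 0. Their sums did not overlap, at 371.1 to 635 CPM with EtOH and 238.5 to 355 CPM in controls. The neutrophil markers S100a9, Ly6g and Elane had no reads in any of the 9 libraries.

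In the edgeR fit with 1 term for EtOH or control no gene passed on the lower side. There 1389 genes (8.1%) had an unadjusted p under 0.05. DESeq2 called 278 genes lower and limma voom 0. Other edgeR fits did call genes lower. They called 22 lower and 63 higher with 1 term per dose, and 190 lower and 323 higher with no filter on low counts. Without the first 6% EtOH library 78 were lower and 85 higher. The 2 nearest to the threshold in the fit with 1 term for EtOH or control, named after their values were seen, were Cdk5rap2 and Kmt2b. Cdk5rap2, a centrosomal protein that anchors microtubules, had 37.8, 34 and 35.1 CPM with 6% EtOH, 37.4, 35.9 and 29.9 CPM with 10% EtOH and 50.8, 47.1 and 51.5 CPM in controls. Kmt2b, a histone H3 lysine 4 methyltransferase, had 63.9, 60.1 and 55 CPM with 6% EtOH, 58, 55.8 and 52.3 CPM with 10% EtOH and 74.7, 77.3 and 76.9 CPM in controls. In both the EtOH libraries were all below the controls, and the log2 differences were -0.51 ± 0.09 and -0.41 ± 0.08 (adjusted p = 0.0517 and 0.0608). With a minimum count of 50, which left 12532 genes to test, both passed, with adjusted p of 0.046 and 0.0493.

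Kmt2b belongs to a list of 42 regulators of chromatin and transcription, of which 38 lay below 0. Their median log2 difference was -0.20. In 18 of the 42 all EtOH libraries lay below all controls, where 5.5% of all genes did. Their mean level was lower in every EtOH library (-0.32 to -0.14) than in any control (-0.023 to 0.020). Of all tested genes with transcripts of 4000 to 8000 bases, 10.5% lay wholly below the controls, and of those above 8000 bases 11.8%. The list was chosen with earlier results of these data known. Kmt2d, another methyltransferase of that family, had 287, 248 and 268 CPM with 6% EtOH, 259.7, 235 and 215 CPM with 10% EtOH and 322, 325 and 367 CPM in controls (log2 difference -0.42 ± 0.09, adjusted p = 0.0895). Ehmt2, which methylates histone H3 lysine 9, had 88.3 to 117 CPM in the EtOH libraries and 129 to 142 CPM in the controls, without overlap. Dnmt3a, the de novo DNA methyltransferase, was named after its values were seen. It had 35.2 to 39.6 CPM in the EtOH libraries and 44.3 to 56 CPM in the controls (log2 difference -0.42 ± 0.09, adjusted p = 0.0851).

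Among genes of small RNA biogenesis 12 of 28 lay above 0 (median -0.063). Tnrc6b, which recruits the deadenylation machinery to microRNA targets, had 185, 171 and 167 CPM with 6% EtOH, 185, 167 and 176 CPM with 10% EtOH and 215, 218 and 221 CPM in controls, with all EtOH libraries below the controls (log2 difference -0.31 ± 0.06, adjusted p = 0.0877). Ago1, an Argonaute that holds the microRNA, had 59 to 78.1 CPM in the EtOH libraries and 84.9 to 91.5 CPM in the controls, and Dicer1, which cuts microRNA precursors, 101 to 113 CPM in the EtOH libraries and 117 to 123 CPM in the controls. Neither overlapped, with log2 differences of -0.30 ± 0.09 and -0.17 ± 0.06 and adjusted p of 0.136 and 0.203. In the list for extracellular vesicles, Cd63, a tetraspanin of vesicle membranes, had 494 to 704 CPM in the EtOH libraries and 378 to 469.9 CPM in the controls (log2 difference 0.50 ± 0.11, adjusted p = 0.0988). That list as a whole had 17 of 29 above 0 and a median of 0.011.

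Targets of the integrated stress response had 5 of 27 above 0 (median -0.19). Shmt2, a mitochondrial enzyme of one-carbon metabolism, had 33 to 60.01 CPM in the EtOH libraries and 61.2 to 68.2 CPM in the controls (log2 difference -0.41 ± 0.14, adjusted p = 0.162). Atf4, the central factor of that response, went against the list and was higher in all EtOH libraries, with 154 to 168 CPM in the EtOH libraries and 135 to 150.3 CPM in the controls (log2 difference 0.14 ± 0.07, adjusted p = 0.272). Immediate early genes, induced within minutes of a stimulus, had 5 of 24 above 0 (median -0.21). Their mean log2 level was -0.379 to -0.162 in the EtOH libraries and -0.178, -0.199 and 0.377 in the controls. Only the third control lay outside the range of the EtOH libraries. Fos had 1.18, 1.46 and 1.42 CPM with 6% EtOH, 1.45, 0.646 and 1.97 CPM with 10% EtOH and 1.63, 2.22 and 21.5 CPM in controls, and 1 control library was far above the other 8 libraries. The heat shock list had 9 of 18 above 0 and a median of 0.0028. In 4 of the 18 all EtOH libraries lay below all controls, where 5.5% of all genes did. The list had a lower mean log2 level in every EtOH library (-0.176 to -0.0447) than in any control (-0.0406 to 0.0684). Its 2 members of smallest p, Hspa1b and Hspa1a, inducible heat shock proteins with near-identical sequences, had 23.2 to 39 CPM in the EtOH libraries and 46 to 54.7 CPM in the controls, and 4.76 to 9.59 CPM in the EtOH libraries and 11.2 to 12.8 CPM in the controls. None of these genes passed.

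The test for a change at either dose, without asking that the doses move alike, called 7 genes (0.0408% of those tested). They were Atp5md, U1, Selenof, Sec61b, Gm22973, Ndufb1 and Rps14. The contrast of 10% with 6% EtOH, in which the controls take no part, called none in edgeR (smallest adjusted p = 0.514), while 1647 genes (9.6%) had an unadjusted p under 0.05. DESeq2 called 1 gene, Tiparp, and limma voom none. Tiparp, an ADP-ribosyltransferase induced by the aryl hydrocarbon receptor, had 106, 113 and 96.7 CPM with 6% EtOH, 157, 136 and 194 CPM with 10% EtOH and 100.4, 90.6 and 92.4 CPM in controls. The 10% EtOH libraries were all above the 6% EtOH libraries (log2 difference 0.62 ± 0.12). Aldh3b2, an aldehyde dehydrogenase, had 9.03, 10.4 and 11.1 CPM with 6% EtOH, 5.99, 6.91 and 4.59 CPM with 10% EtOH and 9.66, 9.38 and 10.5 CPM in controls, with the 10% EtOH libraries lowest (-0.80 ± 0.18). Vps35l, of an endosomal sorting complex, C1galt1c1, a chaperone of O-glycosylation, and Cgnl1, a junction protein, differed by -0.40 ± 0.08, 0.56 ± 0.12 and -0.40 ± 0.09.

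Over the 16 genes the log2 difference of 10% from 6% EtOH had a median of 0.14 and ran from -0.036 to 0.26. It was above 0 in 14, the unadjusted p was under 0.05 in 4, and none passed. Against control, which both doses share, Atp5md had log2 fold changes of 0.72 ± 0.10 at 6% and 0.96 ± 0.10 at 10%, Sec61b of 0.47 ± 0.09 at 6% and 0.73 ± 0.09 at 10% and Rps14 of 0.62 ± 0.11 at 6% and 0.83 ± 0.11 at 10%. For Cops9 they were 0.52 ± 0.10 at 6% and 0.52 ± 0.10 at 10%. On their own, 6% EtOH against control called 0 genes in edgeR (1371 at an unadjusted p under 0.05) and 10% EtOH 1059 (6.17%).

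The genes that passed were short. Of the 15 with an annotated transcript length, 13 were under 1000 bases, and their median was 636 bases against 2657 for all tested genes. The whole transcriptome showed a trend of the same kind. Transcripts under 300 bases had a median log2 difference of 0.50 (162 genes), those of 300 to 600 bases 0.15 (701 genes) and those of 600 to 1000 bases 0.10 (1227 genes). From 4000 to 8000 bases the median was -0.032 (3779 genes), and above 8000 bases it was -0.035 (654 genes).

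GC content showed a second trend. Below 40% GC the median was 0.34, with 740 of 858 genes above 0, and above 60% it was -0.12, with 269 of 792 above 0. The third 10% EtOH library weighed on the GC trend: without it the medians were 0.17 and -0.083. Without that library the length medians were 0.41 under 300 bases, a smaller value, and -0.074 above 8000 bases, a lower one. The mean log2 level of transcripts under 1000 bases, minus that of transcripts of 4000 bases or more, was 0.0087 in that library. It was 0.121 to 0.212 in the other EtOH libraries and -0.0684 to 0.0548 in the controls. The annotated transcript of Atp5md has 362 bases and that of Kmt2b 8454 bases.

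**Figure D4:**
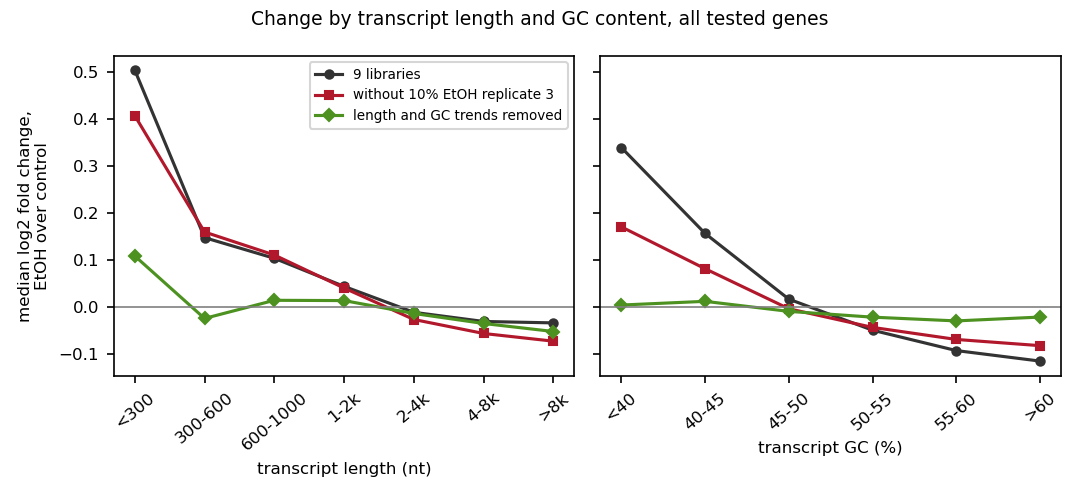
Median log2 fold change of EtOH over control (y axis) for all tested genes in bins of transcript length (left) and GC content (right), with all 9 libraries, without the third 10% EtOH library, and with both trends removed from each library. The median under 300 bases is 0.50 with all libraries, 0.41 without that library and 0.11 with the trends removed.

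With both trends removed from every library, 5 genes passed, all higher: U1, Tmem30a, Atp5md, 2410006H16Rik and Rps14. Of these, 4 were among the 16. Tmem30a, a subunit of phospholipid flippases, had a log2 fold change of 0.56 (adjusted p = 0.035). U1 has no annotated length in the tables used and so was not corrected. Atp5md had a log2 fold change of 0.51 there, against 0.85 without the removal. The medians of lists were smaller, at 0.11 for complex I, 0.077 for ATP synthase, 0.078 for the mitochondrial ribosome, 0.082 for the proteasome and 0.088 for the translocon. Cytosolic ribosomal proteins came to 0.028 and complex IV to 0.00036. The median of chromatin regulators was -0.14, against -0.20 without the removal, and that of the initial segment 0.36, against 0.46.

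The number of genes that passed depended strongly on single libraries. Without the third 10% EtOH library 926 genes passed, 539 higher (3.22%) and 387 lower (2.31%), and all 16 remained among them. With each of the 3 controls left out in turn 0 genes passed in edgeR, with an unadjusted p under 0.05 in 2082, 2552 and 2007 genes. Leaving out the 6% EtOH libraries in turn gave 163, 0 (2842 at an unadjusted p under 0.05) and 5 genes, and leaving out the first or second 10% EtOH library 1 and 4. U1 was the gene left without the first 10% EtOH library.

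**Figure D5:**
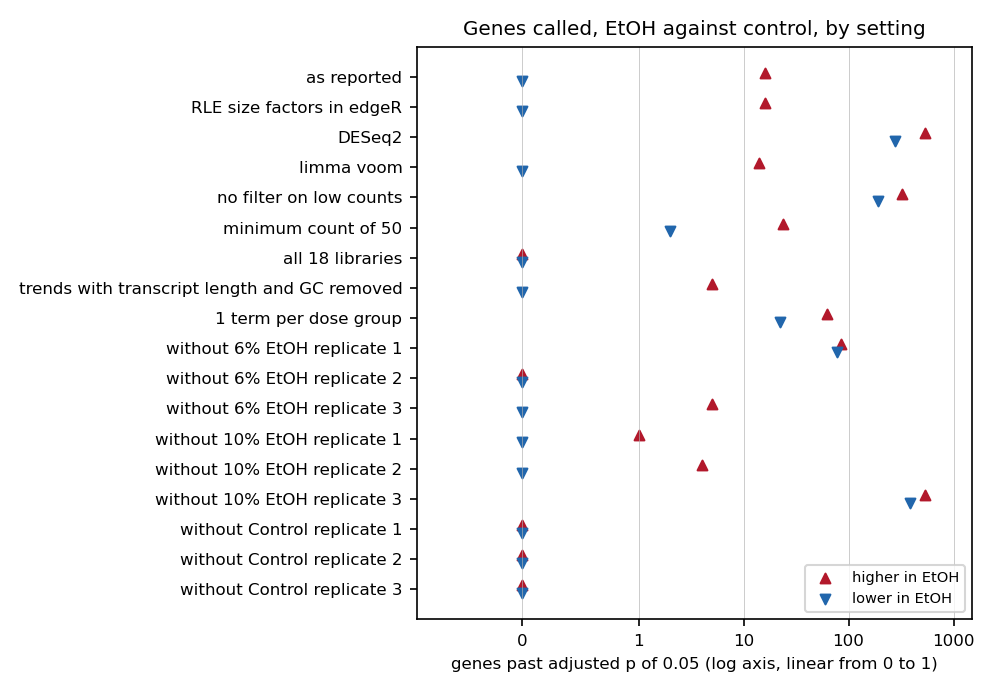
Number of genes past an adjusted p of 0.05 in the pooled comparison (x axis, log scale, linear between 0 and 1) under each setting, as up triangles for genes higher and down triangles for genes lower in EtOH. The count ran from 0, reached without any 1 of the controls among other settings, to 926 (539 higher and 387 lower) without the third 10% EtOH library.

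Among the 926, more members of the lists above passed, most but not all in the directions already given. Complex I had 10 of 38, ATP synthase 7 of 18, the cytosolic ribosome 18 of 80, the proteasome 10 of 32, the mitochondrial ribosome 8 of 77 and the translocon 6 of 30, all higher, where 3.22% of all genes were called higher in that fit. Chromatin regulators had 14 of 42, all lower, where 2.31% of all genes were, with Kmt2b at -0.39, Kmt2d at -0.39 and Ehmt2 at -0.33. The initial segment had 6 of 23 higher, among them Lcn10 at 0.64 and Adam7 at 0.42. The antioxidant list had 3 of 33 higher and 1 lower, and the TCA cycle had 2 of 21 higher. Of small RNA genes Tnrc6b (-0.33) and Ago1 (-0.27) passed as lower. The gene of smallest p was Pdcd10, a protein of cell junction signalling, with a log2 fold change of 0.76 ± 0.09 (adjusted p = 0.000981). Cox6c of complex IV reached 0.55 and Immp1l 0.77.

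The start regions of genes that passed did not share a single motif. RefSeq promoter windows (GRCm38.p6, 250 bases before to 50 after the start) were at hand for 11 of the 16, and for 12170 of the 17154 tested genes. The motifs searched on both strands were the ETS motif (CCGGAAG), the YY1 motif (AAGATGGC), the NRF1 motif, the CCAAT box (CCAAT) and the TATA box (TATAAA). None of these contains another. The windows of Atp5md, Cops9, Rps27 and Pate6 are shown because they differ in motifs and in CG pairs. Capitals mark motif matches.
Atp5md (chr19:47090598-47090897, minus strand): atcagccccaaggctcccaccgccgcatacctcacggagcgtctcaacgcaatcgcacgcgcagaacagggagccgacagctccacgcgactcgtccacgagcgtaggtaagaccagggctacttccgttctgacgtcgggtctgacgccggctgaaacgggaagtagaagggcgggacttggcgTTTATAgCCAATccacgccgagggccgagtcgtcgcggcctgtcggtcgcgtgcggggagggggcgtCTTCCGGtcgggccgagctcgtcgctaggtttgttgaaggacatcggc
Cops9 (chr1:92641899-92642198, minus strand): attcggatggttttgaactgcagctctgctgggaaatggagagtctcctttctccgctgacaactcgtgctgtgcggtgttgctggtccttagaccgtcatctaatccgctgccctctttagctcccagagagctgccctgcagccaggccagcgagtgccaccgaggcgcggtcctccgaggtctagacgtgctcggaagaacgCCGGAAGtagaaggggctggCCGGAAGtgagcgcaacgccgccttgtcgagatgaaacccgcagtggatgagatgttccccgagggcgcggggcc
Rps27 (chr3:90213599-90213898, minus strand): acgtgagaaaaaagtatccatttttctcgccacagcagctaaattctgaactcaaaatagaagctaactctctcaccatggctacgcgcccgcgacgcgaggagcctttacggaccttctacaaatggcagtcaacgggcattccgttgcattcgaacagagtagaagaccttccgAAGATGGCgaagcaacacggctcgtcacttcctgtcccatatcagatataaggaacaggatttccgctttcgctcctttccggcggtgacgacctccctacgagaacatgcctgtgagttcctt
Pate6 (chr9:35790063-35790362, minus strand): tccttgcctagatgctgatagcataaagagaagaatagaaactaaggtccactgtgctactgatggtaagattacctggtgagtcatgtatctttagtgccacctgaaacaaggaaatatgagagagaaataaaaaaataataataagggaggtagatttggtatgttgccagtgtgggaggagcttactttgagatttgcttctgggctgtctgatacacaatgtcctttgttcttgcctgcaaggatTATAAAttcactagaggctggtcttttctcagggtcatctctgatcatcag
Atp5md holds an ETS match, a TATA box and a CCAAT box, Cops9 a pair of ETS matches, Rps27 a YY1 match and Pate6 a TATA box. The Atp5md window has 39 CG pairs and the Pate6 window 0.

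An ETS match was found in 2 of the 11 windows (18.2%), against 16.4% of all tested genes, and a YY1 match in 1 (9.09%), against 4.11%. The lists differed more. ETS matches stood in 40.7% of the windows of cytosolic ribosomal proteins, 35.3% of those of mitochondrial ribosomal proteins and 34.6% of those of proteasome subunits. YY1 matches stood in 20.6% of those of complex I. The windows of the initial segment genes held no ETS, YY1, NRF1 or TATA box match and a median of 3 CG pairs, against 19 over all tested genes. Those of the chromatin regulators had a median GC content of 69.7%, against 60.3% over all tested genes. A match is a description of the letters only.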

How the data were processed

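Each deposited table holds raw counts of 1 library over the same 53819 gene entries. The submitters' processing notes name Trimmomatic, STAR, featureCounts and build GRCm39 (mm39). Versions, annotation release, strand setting and the handling of multiply matching reads were not given in the sources used here, so overlapping and antisense genes cannot be told apart. Members and gene lists were chosen with earlier results of these data known.

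Genes were kept with edgeR's filterByExpr by pooled group (count of 10, total of 15), and the 17154 genes kept held at least 99.8% of each library. TMM scaling was used (factors 0.929 to 1.06), and genes were tested with edgeR 4.0.16 (R 4.3.3), robust quasi-likelihood, with 1 term for EtOH or control; the biological coefficient of variation was 17.5%. A second fit with 1 term per dose gave the joint F test on both doses and the contrast of 10% with 6%. Standard errors are those implied by the test. Replicates differed by more than sampling noise (chi-square per degree of freedom 5.79 to 60.4). Replicates were numbered in accession order, so no number pairs samples.

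The named genes were those that passed with mean log2 CPM no lower than 1, a symbol that is not a predicted or clone name and no overlap between groups, up to 15 in each direction; up to 4 members of smallest p per list; and the 5 genes of smallest p between doses. Of 51 lists, described by counts and medians, 48 had at least 5 tested members. Transcript lengths and GC content came from GENCODE M21 (GRCm38), found by symbol for 98.9% of genes tested, in place of the RefSeq tables first planned. Scripts were tested on simulated counts. Alternatives were RLE scaling, DESeq2 1.42.0, limma 3.58.1 voom, no filter, a minimum count of 50, all 18 libraries, removal of length and GC trends, 1 term per dose, and leaving out each library.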

Additional observations from a re-analysis of the deposited data

Results flagged for a closer look

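In 14 of 87 sets of the 6 EtOH libraries that were checked, 1 library lay far from the other 5, where chance gives about 1 in 20. Of genes that passed, Gm22973 was low in the third 6% EtOH library, at 5.86 CPM against 8.17 to 9.18 CPM in the other EtOH libraries. Rps14 was high in the second 10% EtOH library, at 1180 CPM against 858 to 950 CPM. Ssr4, which did not pass, was high in the same library, at 318 CPM against 259 to 279 CPM.

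The third 10% EtOH library stood out in 7 sets. Its level of U2 was 549 CPM against 228 to 330 CPM in the other EtOH libraries, of U6 20.8 CPM against 9.33 to 11.9 CPM, and of Immp1l 53.0 CPM against 28.8 to 35.8 CPM. On the log2 scale relative to the controls, its mean level of complex IV was -0.033 (others 0.069 to 0.12), of the integrated stress response -0.43 (others -0.16 to -0.016), of hypoxia and glycolysis -0.26 (others -0.062 to 0.016) and of macrophage markers 0.81 (others 0.16 to 0.40).

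The first 6% EtOH library was high for Safb2, which binds nuclear scaffold DNA, at 41.1 CPM against 30.4 to 33.3 CPM in the other EtOH libraries. It was also high for Mt3, a metallothionein, at 4.21 CPM against 2.91 to 3.24 CPM. Its mean level of ethanol and aldehyde metabolism was -0.16 against 0.0027 to 0.082 in the other EtOH libraries. Rgs12, a regulator of G protein signalling, was high in the third 6% EtOH library, at 17.6 CPM against 14.3 to 14.8 CPM.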

How the results depend on the processing

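The pooled count of 16 genes became 809 with DESeq2, 513 with no filter on low counts, 26 with a minimum count of 50, 5 with length and GC trends removed, 85 with 1 term per dose and 0 with all 18 libraries (edgeR in each but the first), and ran from 0 to 926 over the 9 fits that left out a library. RLE scaling gave 16 and limma voom 14. The count for either dose, 7, became 14 with RLE scaling, 1338 with DESeq2, 1864 with no filter and 0 with all 18 libraries, and ran from 0 to 462 over the leave-outs. The count between doses, 0, became 1 with DESeq2 and 307 with no filter, and was 0 in each leave-out. The causes were not tested, except that fewer genes were tested at the higher minimum. With no filter 33060 entries were tested, many with few reads.

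Of 663 log2 fold changes of named genes under the alternatives, none reversed; 425 stayed on the same side of the threshold, 133 lost it and 105 gained it. Of 867 list medians, 38 moved by more than the spread between libraries. No paired analysis was possible because the replicate numbers follow the order of deposit. In most of the named genes the groups do not overlap, which largely fixes the direction.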

Other observations

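After cessation, in the 9 libraries not used above, 9 of the 16 genes were higher in the 6 EtOH libraries than in the 3 controls and none passed in a fit over all 18 libraries, in which 18618 genes were tested and 0 passed for that contrast. Their log2 differences had a median of 0.049 and ran from -1.36 to 0.65. Atp5md averaged 95.3 ± 43.8 CPM with EtOH and 86.1 ± 13.2 CPM in controls after cessation (SD, n = 6 and 3). U1, the gene of smallest p at 10 weeks, averaged 1706 ± 1130 CPM with EtOH and 4127 ± 2840 CPM in controls. Gpx4 averaged 164.5 ± 31.4 CPM with EtOH and 168.6 ± 17.8 CPM in controls. The difference between the times was not tested here.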
